A study of Mus musculus with 30 samples.

Results

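The CRH system and social peptide receptors are 9 genes: Crh, the gene of corticotropin-releasing hormone, its receptors Crhr1 and Crhr2, its binding protein Crhbp, the oxytocin receptor Oxtr, the vasopressin receptor Avpr1a, the tachykinin receptors Tacr1 and Tacr3, and the neuropeptide Y receptor Npy1r. They were chosen by name, and the 9 symbols matched 9 of the 55335 gene rows of the count table through GENCODE release M21. The counts came from polyribosome-bound RNA of the nucleus accumbens of female mice, pulled down with an antibody against the HA tag. Mice of the D1-Cre-RT genotype gave libraries labelled D1-MSN, and A2A-Cre-RT mice gave those of the other class of medium spiny neuron, called D2 below, so that Cre and tag were present in the Control mice too. Each genotype was sampled as Control, CWDS Resilient and CWDS Susceptible, where CWDS is chronic witness defeat stress, in which a mouse sees another being defeated, and the stressed mice were divided by their social interaction scores. Each of the 6 groups had 5 libraries, 30 in all, each pooled from 4 mice with similar scores, with 10 ng of RNA per library from tissue collected 24 h after that test of social interaction. The pools and the groups therefore rest on the same behavioural score, and p-values measure the spread between pools.

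Corticotropin-releasing hormone is known as the peptide that starts the hormonal stress response, and in the forebrain it also acts as a transmitter made mainly by inhibitory interneurons. It signals through a pair of receptors that raise cAMP, CRH receptor 1 and CRH receptor 2, the latter preferring the urocortins, and the secreted binding protein captures the peptide before it reaches them. The oxytocin, vasopressin 1a and tachykinin receptors couple mainly to Gq and phospholipase C, and the NPY Y1 receptor couples to Gi and lowers cAMP.

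Library sizes ran from 28996168 to 65882152 gene counts. A library's 3 counts, taken as the floor below which a level is not told from 0, equalled 0.043 to 0.0728 CPM in 29 libraries and 0.304 CPM in D1 Susceptible replicate 1. CPM are counts after scaling each library to 1000000, on library sizes corrected by edgeR's TMM factors, which discount a single dominant gene. 4 libraries stood apart. D1 Susceptible replicate 1 had the smallest total, 41.2% of its reads outside annotated features, against at most 11.1% in the others, and 54.9% of its gene counts on the single gene Gm42418. D2 Susceptible replicates 1 and 2 had 15822 and 16525 genes detected, against at least 19440 elsewhere. D2 Susceptible replicate 1 also held 144 counts of the Y-linked gene Uty, which had 0 counts in the other libraries, although each library is labelled female. D2 Resilient replicate 5 carried a summed level of 1860 CPM over 7 D1 neuron markers, where the median of its group was 386 CPM. D2 Control replicate 5 had 1240 CPM of these markers, where its group's median was 488 CPM. The D1 markers summed to 1740 to 2610 CPM in D1 libraries. The 5 measured D2 markers summed to 1120 to 2770 CPM in D1 and 4870 to 12800 CPM in D2 libraries, so that on these each library lay on the side of its label. In edgeR 6 of 7 D1 markers were higher and 5 of 5 measured D2 markers lower in D1 than in D2 libraries over the 3 groups.

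These genes were called most often between D1 and D2 libraries. Each class came from its own mouse genotype, so a difference between neuron classes cannot be told apart from one between the mouse lines. In D1 against D2 libraries averaged over the 3 stress groups, 6 of the 9 passed an adjusted p of 0.05 in edgeR's quasi-likelihood test, where 29.3% of the 19368 genes tested did so. Crhbp, Oxtr, Crh, Tacr3 and Tacr1 were higher in D1 libraries, 5 of 9 where 13.8% of genes were, and Crhr1 was lower, 1 of 9 where 15.5% were. Crhbp and Oxtr did not overlap between the 15 D1 and the 15 D2 libraries, a separation seen in 1.18% of genes. The median log2 difference of the 9 genes was 0.77, against 0.00 for all genes tested. Because these are bulk pulldowns, fewer cells of a type, less RNA per cell and a different share of RNA from untagged cells cannot be told apart.

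**Figure D1:**
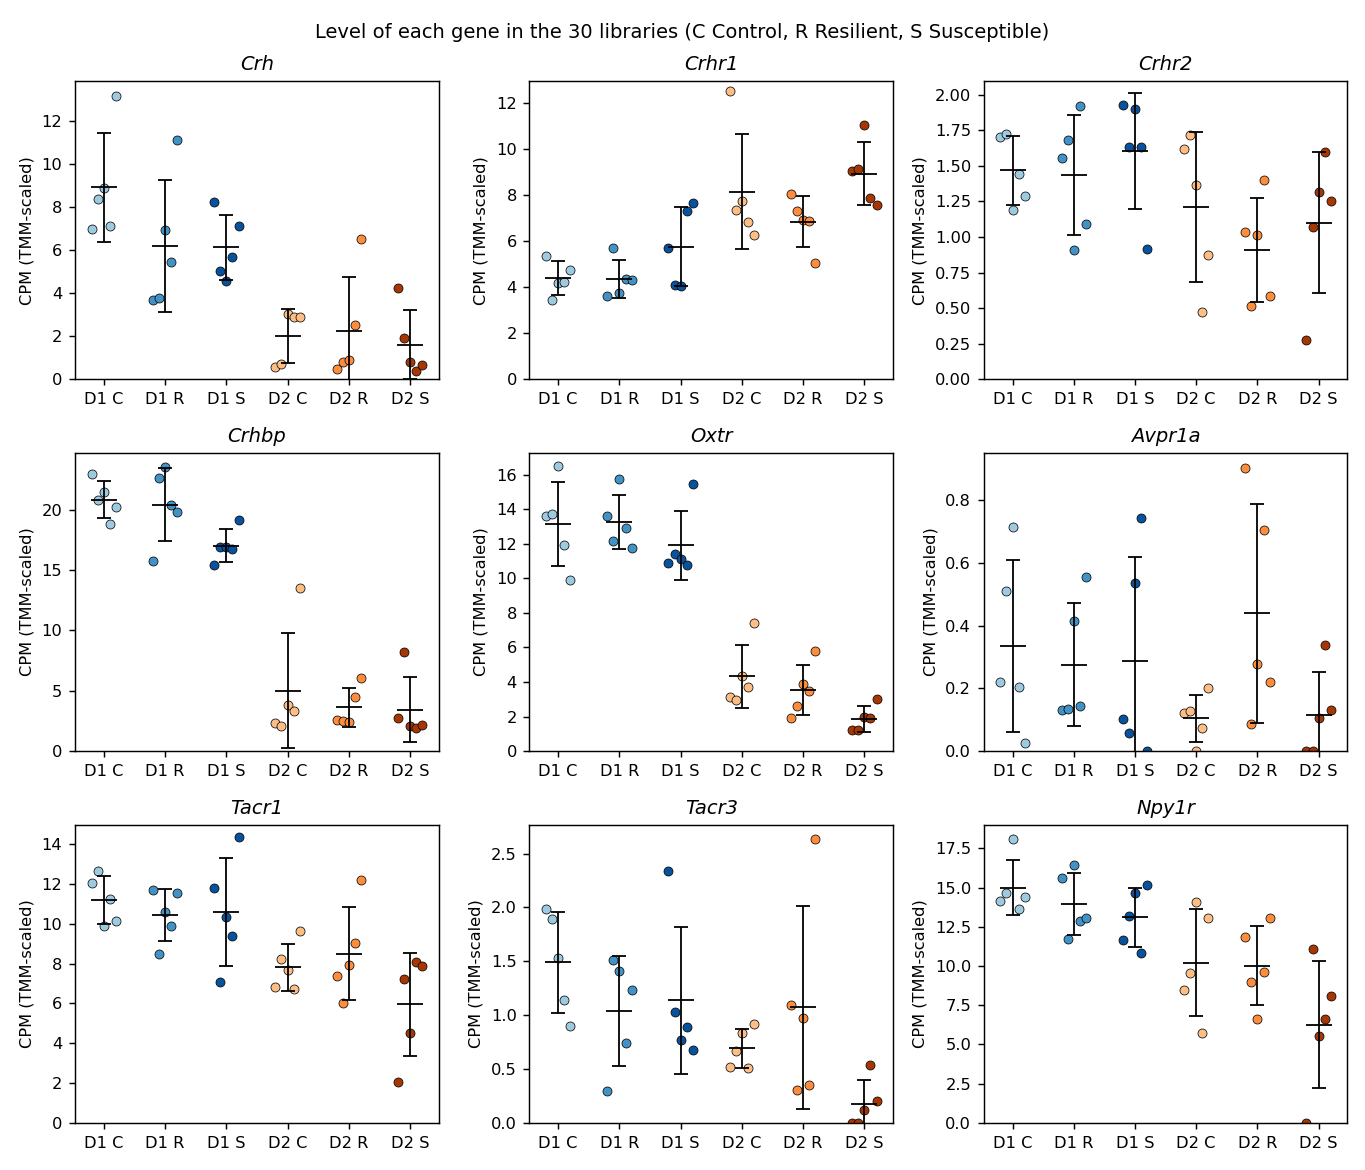
Level of each of the 9 genes in the 30 libraries, in CPM on TMM-scaled library sizes, by group. Points are libraries, and bars are the mean ± SD of 5 libraries. Crhbp and Oxtr lie higher in each D1 library than in any D2 library, while Crhr1 lies higher in most D2 libraries.

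The stretches upstream of the start sites of 3 genes are shown because these differed between the classes in opposite directions: Crhbp and Oxtr, the pair separated without overlap, and Crhr1, the 1 gene lower in D1 libraries. They come from RefSeq's promoter table on GRCm38.p6, 5′ to 3′ on each gene's own strand, cut at the first exon of GENCODE M21, with a GC box in capitals. RefSeq entries were matched for 8 of the 9 genes, all but Crh.
Crhbp, chr13:95444925-95445081, minus strand: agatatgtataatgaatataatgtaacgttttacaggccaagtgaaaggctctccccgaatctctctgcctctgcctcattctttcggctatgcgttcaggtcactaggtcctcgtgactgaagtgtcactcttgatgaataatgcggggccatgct
Oxtr, chr6:112489944-112490075, minus strand: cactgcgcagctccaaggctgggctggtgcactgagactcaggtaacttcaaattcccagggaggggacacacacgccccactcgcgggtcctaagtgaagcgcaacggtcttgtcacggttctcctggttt
Crhr1, chr11:104132531-104132780, plus strand: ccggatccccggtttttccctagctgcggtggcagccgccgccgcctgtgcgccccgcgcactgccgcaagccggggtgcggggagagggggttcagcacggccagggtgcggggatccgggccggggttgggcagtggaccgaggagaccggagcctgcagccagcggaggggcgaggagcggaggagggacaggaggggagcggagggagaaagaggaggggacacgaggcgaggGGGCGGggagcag

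The 3 windows differ in base composition and in the short motifs they hold. Over the full window of 300 bases, from 250 before the start site to 50 after it, Crhr1 was 75% G or C, Oxtr 63.7% and Crhbp 48%, where the median of all windows was 52.7%. 5 motifs were searched on both strands: the cAMP response element TGACGTCA, its core TGACG, which every full element contains, the AP-1 site TGANTCA, the GC box GGGCGG and the TATA box TATAAA. The windows of Crhr1 and Oxtr each held 1 GC box, found in 35.7% of 32851 windows, and that of Oxtr lies outside the printed stretch. The window of Crhbp held 1 core, found in 20.8% of windows, and 1 TATA box, found in 13.6%, both outside the printed stretch. The full cAMP response element, present in 1.79% of windows, and the AP-1 site, present in 7.81%, had 0 matches in the 3.

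Crh (ENSMUSG00000049796, chr3:19693401-19695396, minus strand), the peptide itself, was read at a mean of 7.07 ± 2.63 CPM in D1 and 1.95 ± 1.75 CPM in D2 libraries (SD, n = 15 each). Crh in the 5 D1 Control libraries stood at 6.97, 8.38, 8.89, 7.11 and 13.2 CPM. Crh in the 5 D1 Resilient libraries stood at 3.69, 3.77, 6.91, 5.46 and 11.1 CPM. Crh in the 5 D1 Susceptible libraries stood at 8.22, 5.01, 4.58, 5.65 and 7.12 CPM. D1 Control replicate 5 and D1 Resilient replicate 5 were the highest of the 15. Crh in the 5 D2 Control libraries stood at 0.592, 0.688, 3.04, 2.87 and 2.91 CPM. Crh in the 5 D2 Resilient libraries stood at 0.468, 0.809, 0.895, 2.50 and 6.49 CPM. Crh in the 5 D2 Susceptible libraries stood at 4.25, 1.92, 0.789, 0.383 and 0.662 CPM. The classes did not overlap in Control or in Susceptible mice, and overlapped in Resilient mice through D2 Resilient replicate 5, the library rich in D1 markers.

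Over the 3 groups Crh was 3.60-fold higher in D1 libraries (log2 difference 1.85, SE 0.35, edgeR adjusted p = 0.000196), and the log2 difference was 2.57 without the 4 libraries that stood apart and 2.61 with voom. It was higher by 2.14 on the log2 scale in Control mice (edgeR adjusted p = 0.0272) and by 1.94 in Susceptible mice (edgeR adjusted p = 0.0238). In Resilient mice the log2 difference of 1.47 did not pass (edgeR adjusted p = 0.192). The calls within groups were lost under some alternatives. In Control mice the adjusted p rose to 0.0533 and 0.0726 without D1 Control replicates 3 and 5, and to 0.0744 and 0.0779 without D2 Control replicates 1 and 2, and to 0.0559 with no filter on low counts, within a range of 6.43e-06 to 0.0779 over the alternatives. In Susceptible mice it rose to 0.0514 without D2 Susceptible replicate 4 and to 0.0735 when those 2 groups alone were fitted, and the log2 difference was 2.72 without D2 Susceptible replicate 1 and 3.33 without replicates 1 and 2. In Resilient mice it fell to 0.00849, with a log2 difference of 2.41, without D2 Resilient replicate 5.

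Crhbp (ENSMUSG00000021680, chr13:95431371-95444924, minus strand), which sequesters the hormone outside the cell, had the highest level of the 9 per length of transcript. Its mean over the 30 libraries was 6.51 CPM per kilobase of exon, followed by Crh at 3.42, Npy1r at 3.31, Crhr1 at 2.60, Oxtr at 1.67 and Tacr1 at 1.40, with Crhr2 at 0.252, Tacr3 at 0.248 and Avpr1a at 0.0972. Crhbp in the 5 D1 Control libraries stood at 23.0, 20.8, 21.4, 18.8 and 20.2 CPM. Crhbp in the 5 D1 Resilient libraries stood at 15.8, 22.6, 23.5, 20.4 and 19.8 CPM. Crhbp in the 5 D1 Susceptible libraries stood at 15.4, 16.9, 16.9, 16.7 and 19.2 CPM. The 15 D1 libraries lay within a narrow band, from 15.4 to 23.5 CPM. Crhbp in the 5 D2 Control libraries stood at 2.33, 2.12, 3.80, 3.35 and 13.5 CPM. Crhbp in the 5 D2 Resilient libraries stood at 2.60, 2.53, 2.42, 4.47 and 6.07 CPM. Crhbp in the 5 D2 Susceptible libraries stood at 2.73, 8.19, 2.09, 1.91 and 2.18 CPM. D2 Control replicate 5 and D2 Susceptible replicate 2 stood above the other D2 libraries, still under the lowest D1 library.

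Crhbp was 4.88-fold higher in D1 libraries over the 3 groups (log2 difference 2.29, SE 0.24, edgeR adjusted p = 1.71e-08). The log2 difference was 2.05 in Control, 2.49 in Resilient and 2.32 in Susceptible mice, and each passed (edgeR adjusted p = 0.00133, 0.00016 and 0.000255). These 3 calls and the one over all groups held under each of the 38 alternatives. The size of the log2 difference moved, to 2.86 in Control mice without D2 Control replicate 5 and to 2.96 in Susceptible mice without D2 Susceptible replicate 2, with 3.09 without the 4 libraries that stood apart and 2.69 and 2.97 with voom.

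Crhr1 (ENSMUSG00000018634, chr11:104132855-104175523, plus strand), the main CRH receptor of the forebrain, ran the other way, with a mean of 4.83 ± 1.28 CPM in D1 and 7.96 ± 1.86 CPM in D2 libraries (SD, n = 15 each). Crhr1 in the 5 D1 Control libraries stood at 5.37, 3.42, 4.18, 4.21 and 4.76 CPM. Crhr1 in the 5 D1 Resilient libraries stood at 3.62, 5.71, 3.74, 4.36 and 4.30 CPM. Crhr1 in the 5 D1 Susceptible libraries stood at 5.68, 4.08, 4.04, 7.30 and 7.65 CPM. D1 Susceptible replicates 4 and 5 were the highest of the D1 libraries. Crhr1 in the 5 D2 Control libraries stood at 12.5, 7.33, 7.73, 6.84 and 6.28 CPM. Crhr1 in the 5 D2 Resilient libraries stood at 8.04, 7.30, 6.90, 6.88 and 5.05 CPM. Crhr1 in the 5 D2 Susceptible libraries stood at 9.02, 9.15, 11.0, 7.87 and 7.54 CPM. The lowest D2 library was D2 Resilient replicate 5, the one with the most D1 marker RNA, and in Control mice the classes did not overlap.

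Crhr1 was 1.65-fold lower in D1 libraries over the 3 groups (log2 difference -0.73, SE 0.12, edgeR adjusted p = 1.83e-05). It was lower in Control mice (log2 difference -0.89, edgeR adjusted p = 0.00482) and in Susceptible mice (log2 difference -0.63, edgeR adjusted p = 0.0252). In Resilient mice the log2 difference of -0.65 had an edgeR adjusted p of 0.0505. The Susceptible call in edgeR was lost without D1 Susceptible replicate 2 or 3 (adjusted p = 0.0972 and 0.0966) and without D2 Susceptible replicate 2 or 3 (adjusted p = 0.0532 and 0.0671). It was also lost with no filter on low counts, without D2 Susceptible replicates 1 and 2, without the 4 libraries that stood apart and with those 2 groups fitted alone (edgeR adjusted p = 0.0516, 0.0958, 0.101 and 0.136). The Resilient difference passed in edgeR without D1 Resilient replicate 2, D2 Control replicate 1, D2 Resilient replicate 5 or D2 Susceptible replicate 1 (adjusted p = 0.0379, 0.0406, 0.032 and 0.0477). It passed under 6 further alternatives, among them DESeq2 (adjusted p = 0.0228) and voom (adjusted p = 0.0056).

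Crhr2 (ENSMUSG00000003476, chr6:55090049-55133016, minus strand), the receptor of the urocortins, was read at low levels, from 0.91 to 1.93 CPM in D1 and from 0.279 to 1.72 CPM in D2 libraries. Its log2 difference of 0.49 over the 3 groups did not pass (SE 0.23, edgeR adjusted p = 0.116). Within Control, Resilient and Susceptible mice the log2 differences were 0.28, 0.65 and 0.53, and none passed (edgeR adjusted p = 0.808, 0.532 and 0.361).

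**Figure D2:**
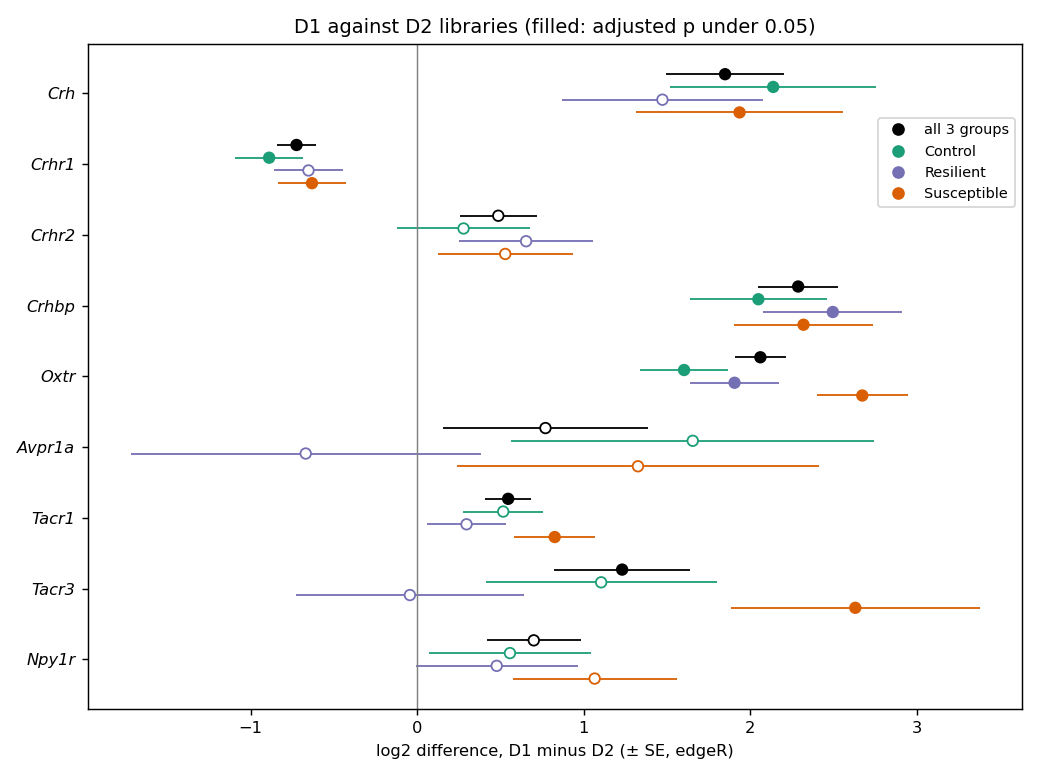
Log2 difference between D1 and D2 libraries for each gene, over the 3 stress groups (black) and within each, with its SE from edgeR. Filled points passed an adjusted p of 0.05. Crhbp and Oxtr are filled in each of the 4 comparisons, and Crhr1 is the 1 gene below 0 in each.

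Oxtr (ENSMUSG00000049112, chr6:112473683-112489943, minus strand), the receptor for oxytocin, had a mean of 12.8 ± 1.98 CPM in D1 and 3.24 ± 1.69 CPM in D2 libraries (SD, n = 15 each). Oxtr in the 5 D1 Control libraries stood at 13.6, 13.7, 16.5, 11.9 and 9.93 CPM. Oxtr in the 5 D1 Resilient libraries stood at 13.6, 12.2, 15.8, 12.9 and 11.8 CPM. Oxtr in the 5 D1 Susceptible libraries stood at 10.9, 11.4, 11.1, 10.8 and 15.5 CPM. Each of the 15 D1 libraries exceeded the highest D2 library. Oxtr in the 5 D2 Control libraries stood at 3.14, 2.97, 4.36, 3.71 and 7.44 CPM. Oxtr in the 5 D2 Resilient libraries stood at 1.92, 2.63, 3.88, 3.47 and 5.79 CPM. Oxtr in the 5 D2 Susceptible libraries stood at 1.22, 1.20, 1.97, 1.93 and 3.00 CPM. Among D2 libraries the highest were Control replicate 5 and Resilient replicate 5, and the lowest were Susceptible replicates 1 and 2.

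Oxtr was 4.17-fold higher in D1 libraries over the 3 groups (log2 difference 2.06, SE 0.15, edgeR adjusted p = 9e-12). The log2 difference was 1.60 in Control, 1.91 in Resilient and 2.67 in Susceptible mice (edgeR adjusted p = 0.000106, 9.71e-06 and 8.51e-08), and these calls held under each of the 38 alternatives. The difference between the Susceptible and the Control value, a test of the interaction itself, was 1.07 on the log2 scale and did not pass (SE 0.37, edgeR unadjusted p = 0.00646, adjusted p = 0.637).

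Avpr1a (ENSMUSG00000020123, chr10:122448499-122453452, plus strand), the vasopressin receptor known for its part in social recognition, was near the floor. It had from 0 to 56 counts per library, with 0 in D1 Susceptible replicate 5, D2 Control replicate 3 and D2 Susceptible replicates 1 and 2. The log2 difference of 0.77 over the 3 groups did not pass (SE 0.61, edgeR adjusted p = 0.374), and a difference between the classes was not detected with these counts and their spread between pools. Its fitted log2 differences of 1.65, -0.67 and 1.32 in Control, Resilient and Susceptible mice did not pass either (edgeR adjusted p = 0.455, 0.922 and 0.397). Gm48877 lies within its locus on the opposite strand without sharing exons.

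Tacr1 (ENSMUSG00000030043, chr6:82402334-82560104, plus strand) encodes the substance P receptor. It ran from 7.07 to 14.4 CPM in D1 libraries and from 2.06 to 12.2 CPM in D2 libraries. Tacr1 in the 5 D1 Control libraries ran from 9.89 to 12.7 CPM, with a median of 11.2 CPM. Tacr1 in the 5 D2 Control libraries stood at 6.85, 8.25, 7.67, 6.73 and 9.62 CPM. The 2 sets of Control libraries did not overlap, though their log2 difference of 0.52 did not pass (edgeR adjusted p = 0.218). It passed with voom, with those 2 groups fitted alone, without D2 Susceptible replicates 1 and 2, and without the 4 libraries that stood apart (adjusted p = 0.0141, 0.0171, 0.039 and 0.0346, edgeR but for voom). Over the 3 groups Tacr1 was 1.46-fold higher in D1 libraries (log2 difference 0.55, SE 0.14, edgeR adjusted p = 0.00322). In Susceptible mice the log2 difference was 0.83 (edgeR adjusted p = 0.0137), and 0.60 with an adjusted p of 0.0568 without the 4 libraries that stood apart. That call was also lost with voom (log2 difference 0.44, adjusted p = 0.135) and with those 2 groups fitted alone in edgeR (adjusted p = 0.165). In Resilient mice it was 0.30 (edgeR adjusted p = 0.721).

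Tacr3 (ENSMUSG00000028172, chr3:134829007-134934579, plus strand), the neurokinin B receptor, was read at 1.22 ± 0.555 CPM in D1 and 0.646 ± 0.65 CPM in D2 libraries (SD, n = 15 each). Tacr3 in the 5 D1 Control libraries stood at 1.98, 1.89, 1.53, 1.15 and 0.898 CPM. Tacr3 in the 5 D1 Resilient libraries stood at 0.300, 1.51, 1.41, 0.744 and 1.24 CPM. Tacr3 in the 5 D1 Susceptible libraries stood at 2.33, 1.03, 0.769, 0.886 and 0.679 CPM. D1 Susceptible replicate 1, the library dominated by Gm42418, was the highest of the D1 libraries, at 23 counts. Tacr3 in the 5 D2 Control libraries stood at 0.523, 0.670, 0.836, 0.512 and 0.918 CPM. Tacr3 in the 5 D2 Resilient libraries stood at 1.10, 0.310, 0.974, 0.353 and 2.63 CPM. Tacr3 in the 5 D2 Susceptible libraries stood at 0, 0, 0.123, 0.536 and 0.206 CPM. The highest of the 30 was D2 Resilient replicate 5, and D2 Susceptible replicates 1 and 2 were at 0, which allows up to 0.0644 and 0.0543 CPM.

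Tacr3 was higher in D1 libraries over the 3 groups (log2 difference 1.23, SE 0.41, edgeR adjusted p = 0.0217). In Susceptible mice the D1 libraries lay above the D2 libraries without overlap (fitted log2 difference 2.63, SE 0.75, edgeR adjusted p = 0.0111). Without the 4 libraries that stood apart that difference was 1.53 with an adjusted p of 0.0705, and without D2 Susceptible replicate 4 it was 3.67. The call was also lost with voom (adjusted p = 0.0533) and with those 2 groups fitted alone in edgeR (adjusted p = 0.183). In Control mice it was 1.10 (edgeR adjusted p = 0.423, and 0.0318 with those 2 groups fitted alone). In Resilient mice it was -0.04 (edgeR adjusted p = 0.994), and 0.62 without D2 Resilient replicate 5.

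Npy1r (ENSMUSG00000036437, chr8:66697192-66706792, plus strand), the Y1 receptor, had a mean of 14.0 ± 1.92 CPM in D1 and 8.83 ± 3.66 CPM in D2 libraries (SD, n = 15 each). Npy1r in the 5 D1 Control libraries stood at 14.2, 14.7, 18.1, 13.7 and 14.4 CPM. Npy1r in the 5 D2 Control libraries stood at 8.47, 9.57, 14.1, 5.76 and 13.1 CPM. Npy1r in the 5 D2 Susceptible libraries stood at 0, 11.1, 5.56, 6.62 and 8.06 CPM. D2 Susceptible replicate 1 had 0 counts of Npy1r, while the other 4 of its group had 317 to 611. The log2 difference over the 3 groups was 0.70 and did not pass (SE 0.28, edgeR adjusted p = 0.0623). It passed in edgeR without D2 Susceptible replicate 1 (0.61, adjusted p = 0.00015) and without D2 Susceptible replicate 2 (0.82, adjusted p = 0.0298). In Control, Resilient and Susceptible mice the log2 differences were 0.56, 0.48 and 1.06, and none passed (edgeR adjusted p = 0.621, 0.826 and 0.117). In Susceptible mice it was 0.77 with an adjusted p of 0.0127 without D2 Susceptible replicate 1. Without the 4 libraries that stood apart the differences in the 3 groups were 0.55, 0.59 and 1.00, and each passed (edgeR adjusted p = 0.0297, 0.0352 and 0.00198).

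By group, the 9 genes gave 4 calls in Control mice (Crhbp, Oxtr, Crh and Crhr1), where 8.3% of genes were called, and 5 without overlap, where 11.7% of genes were. They gave 2 calls in Resilient mice (Crhbp and Oxtr), where 6.65% were called, and the same 2 lacked overlap, where 9.7% of genes did. Without D2 Resilient replicate 5 the Resilient count was 4, where calls over all genes in Resilient mice ran from 960 to 3412 over the alternatives (main 1288). In Susceptible mice 6 were called (Crhbp, Oxtr, Crh, Tacr3, Tacr1 and Crhr1), where 23.9% were, and 4 lacked overlap, where 8.92% of genes did. Fitted on the Susceptible libraries of both classes alone, the Susceptible count was 2, and calls over all genes fell from 4621 to 915.

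Markers of other cells moved with the class of library. Over the 3 groups, each of 13 tested markers of 3 kinds of GABA interneuron was called higher in D1 libraries, and 7, 8 and 10 of the 13 were called higher in Control, Resilient and Susceptible mice. The 5 markers of the SST/NPY/NOS1 kind summed to 274 to 446 CPM across D1 libraries and to 64.4 to 257 CPM across D2 libraries. The 4 markers of the PV kind summed to 121 to 179 CPM across D1 and 51.5 to 107 CPM across D2 libraries, and the 4 of the VIP/CCK/CALB2 kind to 141 to 221 CPM across D1 and 61.9 to 186 CPM across D2 libraries. The 5 cortical glutamatergic markers were also called higher in D1 libraries, with sums of 494 to 958 CPM against 153 to 543 CPM. In the other direction, 5 of 5 endothelial and 5 of 5 mural markers were called lower in D1 libraries, the endothelial sum being 12.3 to 34.5 CPM in D1 and 57.5 to 314 CPM in D2 libraries. No marker of these lists was at 0 in each library, and Cort, Pthlh and Htr3a were at 0 in some D2 Susceptible library. Glial markers were called lower in D1 libraries as well: 5 of 5 for astrocytes, 5 of 5 for oligodendrocytes and 3 of 5 for microglia. Of 5 markers of all medium spiny neurons, 3 were called lower, and of 4 markers of cholinergic interneurons, 1 was called higher. Crh and Crhbp are known to be made by interneurons, and Oxtr and Tacr3 by some of them. The part of these cells in the class differences was not tested.

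Within each class, the genes were set against the mean log2 level of 6 marker lists over its 15 libraries, a family of 108 relations added after the data were seen. Permutations ran over the 15 libraries without regard to stress group, so a shift shared by the libraries of a group counts towards their p-values. The adjusted p was under 0.05 for both r and rho in 8 of the 108, for r alone in 8 and for rho alone in 3. The D1 neuron list served for the D2 libraries and the D2 neuron list for the D1 libraries. Oxtr in D2 libraries rose and fell with the D1 neuron markers (Pearson r = 0.861, permutation p = 3e-05, adjusted p = 0.00324; Spearman rho = 0.879, permutation p = 5e-05, adjusted p = 0.0027). Without the 2 libraries farthest from the median of the markers r was 0.782, and with each group's mean removed it was 0.795. Oxtr in D2 libraries also followed the SST/NPY/NOS1 markers (Pearson r = 0.865, permutation p = 9e-05, adjusted p = 0.00486; Spearman rho = 0.707, permutation p = 0.00406, adjusted p = 0.0422), with r = 0.75 without the 2 farthest libraries and 0.741 with group means removed. Crhbp followed the PV markers within both classes. In D2 libraries r was 0.831 (permutation p = 0.00017, adjusted p = 0.00567) and rho 0.793 (permutation p = 0.00068, adjusted p = 0.0184), with r = 0.633 without the 2 farthest and 0.847 with group means removed. In D1 libraries r was 0.783 (permutation p = 0.00076, adjusted p = 0.0137) and rho 0.757 (permutation p = 0.00172, adjusted p = 0.0265), with r = 0.701 and 0.662. Crhbp in D1 libraries also followed the VIP/CCK/CALB2 markers (r = 0.815, permutation p = 0.00021, adjusted p = 0.00567; rho = 0.846, permutation p = 0.00012, adjusted p = 0.00432), with r = 0.778 without the 2 farthest and 0.739 with group means removed.

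Oxtr followed the VIP/CCK/CALB2 markers within both classes. In D2 libraries r was 0.724 (permutation p = 0.00222, adjusted p = 0.0269) and rho 0.761 (permutation p = 0.00156, adjusted p = 0.0265), with r = 0.485 without the 2 farthest libraries and 0.424 with group means removed. In D1 libraries r was 0.718 (permutation p = 0.00269, adjusted p = 0.0291) and rho 0.704 (permutation p = 0.0043, adjusted p = 0.0422), with r = 0.6 without the 2 farthest and 0.692 with group means removed. Tacr3 in D2 libraries followed the D1 neuron markers (r = 0.744, permutation p = 0.00224, adjusted p = 0.0269; rho = 0.74, permutation p = 0.00246, adjusted p = 0.0332), with r = 0.701 and 0.582. Crhr1 in D2 libraries ran against the D1 neuron markers, though r did not pass the adjustment (r = -0.659, permutation p = 0.00935, adjusted p = 0.0594; rho = -0.771, permutation p = 0.00112, adjusted p = 0.0242). For Crhr1, r was -0.608 with group means removed and -0.359 without the 2 farthest libraries, so that the size of r depended on those libraries. The other relations in D2 libraries that passed for r alone were those of Tacr3 with the SST/NPY/NOS1 markers (r = 0.814) and the VIP/CCK/CALB2 markers (r = 0.696), Oxtr with the PV markers (r = 0.704), Tacr1 with the PV and VIP/CCK/CALB2 markers (r = 0.695 and 0.807) and Npy1r with the latter (r = 0.746). Without the 2 farthest libraries these were, in the same order, 0.847, 0.501, 0.413, 0.646, 0.507 and 0.296. With group means removed they were 0.652, 0.315, 0.6, 0.63, 0.766 and 0.701. Npy1r in D2 libraries passed for rho alone with the PV markers (rho = 0.707) and, running against them, with the endothelial markers (rho = -0.882). In D1 libraries Crhr1 passed for r alone with the D2 neuron markers (r = 0.682, permutation p = 0.00451, adjusted p = 0.0349; rho = 0.504, adjusted p = 0.228) and the endothelial markers (r = 0.704, permutation p = 0.00438, adjusted p = 0.0349; rho = 0.4, adjusted p = 0.371), with r = 0.553 and 0.552 without the 2 farthest. With group means removed these were 0.634 and 0.604.

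**Figure D3:**
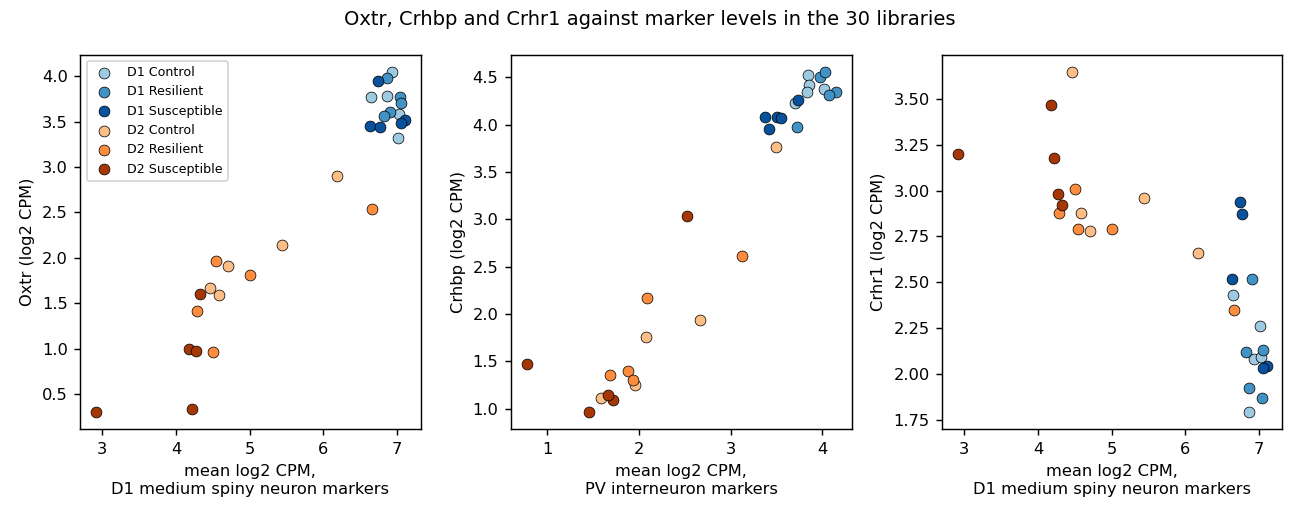
Oxtr and Crhr1 against the mean log2 CPM of 7 D1 neuron markers, and Crhbp against that of 4 PV interneuron markers, in 30 libraries coloured by group. Oxtr in the D2 libraries (orange to brown) climbs with the D1 markers, and Crhbp climbs with the PV markers within each class.

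The genes whose profile over the 30 libraries was most like each of the 9 were found by the root mean square difference of scaled log2 levels, where a smaller value is more alike and the median candidate lay at 1.32 to 1.49. For Crhbp these were Kcnc2, a potassium channel subunit, at 0.208 and Pvalb, the calcium-binding protein of PV interneurons, at 0.258. For Crh they were Sfxn1 at 0.414 and Pvalb at 0.438. Those nearest to Oxtr were Disp2 at 0.259 and Vip, an interneuron peptide, at 0.267. Crhr1 had Id1 at 0.522 and Drd2, the dopamine receptor of the D2 class, at 0.527. Tacr1 had Ecel1 at 0.411. Npy1r had Fam161b at 0.25 and Nxt2 at 0.251, and Crhr2 had the least alike pair, Tbc1d25 at 0.695 and Tmem18 at 0.718. These likenesses hold the class difference itself, since both classes enter. Avpr1a and Tacr3 were left out for a mean under 1 CPM.

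No stress comparison gave a call among the 9 genes in edgeR. In D1 libraries, 0 of 9 passed in Susceptible against Control, Resilient against Control or Susceptible against Resilient mice, where 0% of all genes passed in each, and 0 of 9 also had an unadjusted p under 0.05, where 2.4%, 2.6% and 3.49% of genes did. DESeq2 and voom called 0 of 9 in each as well. In Susceptible against Control mice 7 of 9 lay below 0, with fitted log2 differences from -0.55 for Crh (SE 0.59) to 0.39 for Crhr1 (SE 0.21). Crh in D1 Resilient mice differed from Control by -0.52 (SE 0.59) and Tacr3 by -0.52 (SE 0.69). Crhr1 in D1 Susceptible against Resilient mice differed by 0.40 (SE 0.21, edgeR unadjusted p = 0.0596), by 0.28 without D1 Susceptible replicate 5 and by 0.11 with voom. The D2 neuron markers summed to 2770, 2670 and 2370 CPM in D1 Susceptible replicates 1, 4 and 5, the 3 with the most Crhr1, and to 1120 and 1600 CPM in replicates 2 and 3, and the endothelial markers to 34.1, 34.5 and 25.5 CPM against 17.8 and 15.2 CPM. Their part in the Crhr1 difference was not tested. Crhbp in D1 Susceptible against Resilient mice differed by -0.26 (SE 0.39).

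In D2 libraries Tacr3 and Oxtr in Susceptible mice had the lowest fitted differences from Control, and Avpr1a in Resilient mice the highest. The counts were 0 of 9 called in Susceptible against Control, where 0.00516% of genes were called, 0 of 9 in Resilient against Control, where 0% were, and 0 of 9 in Susceptible against Resilient, where 0.0516% were. At an unadjusted p under 0.05 there were 2 (Oxtr and Tacr3), 0 and 3 (Oxtr, Tacr3 and Tacr1), where 15.7%, 4.2% and 19.1% of genes were. DESeq2 called Oxtr in Susceptible against Control, 0 in Resilient against Control, and Oxtr and Tacr3 in Susceptible against Resilient, and voom called 0 in each. Over the alternatives, calls over all genes ran from 0 to 828 in Susceptible against Control and from 0 to 1964 in Susceptible against Resilient. The share of all genes that DESeq2 called is not given here, so its calls are not read as particular to these genes. These comparisons share libraries.

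Oxtr averaged 1.86 ± 0.735 CPM in D2 Susceptible, 4.32 ± 1.83 CPM in D2 Control and 3.54 ± 1.47 CPM in D2 Resilient libraries (SD, n = 5 each). In D2 Susceptible mice 4 of 5 libraries lay below each Control library, and replicate 5, at 3.00 CPM, overlapped with them. The log2 difference from Control was -1.21 (SE 0.26, edgeR unadjusted p = 7.36e-05, adjusted p = 0.118). It passed in DESeq2 (adjusted p = 0.00486), and in edgeR without D2 Susceptible replicate 3 (-1.23, adjusted p = 0.0347) or replicate 5 (-1.46, adjusted p = 0.0223), over a range of adjusted p from 0.00486 to 0.821. Without replicate 3, calls over all genes in that comparison rose from 1 to 828. The log2 difference of Oxtr was -0.92 without D2 Susceptible replicates 1 and 2 and -0.61 with voom's quality weights. Against Resilient mice the log2 difference was -0.92 (SE 0.26, edgeR adjusted p = 0.0789), and -0.38 without the 4 libraries that stood apart. It passed in edgeR without D2 Susceptible replicate 3 (-0.94, adjusted p = 0.0368) or replicate 5 (-1.16, adjusted p = 0.0149). Against Resilient mice, calls over all genes rose from 10 to 1964 without replicate 3. The D1 neuron markers summed to 281 to 637 CPM in D2 Susceptible, 344 to 1240 CPM in D2 Control and 371 to 1860 CPM in D2 Resilient libraries, and the SST/NPY/NOS1 markers to 64.4 to 87.7, 89.2 to 257 and 84.1 to 182 CPM. As mean log2 levels, the measure set against Oxtr above, the D1 neuron markers stood at 2.91 to 4.33 in D2 Susceptible libraries. These lay below each D2 Control library (4.46 to 6.18), while D2 Resilient libraries ran from 4.28 to 6.66. For the SST/NPY/NOS1 markers the mean log2 levels in the 3 groups were 1.73 to 2.60, 2.54 to 3.97 and 2.57 to 3.56. The VIP/CCK/CALB2 markers had a mean log2 level of 1.21 to 2.86 in D2 Susceptible libraries, below each D2 Control (2.88 to 4.03) and D2 Resilient library (2.97 to 3.47), while their summed levels overlapped, at 63.1 to 102, 83.7 to 186 and 61.9 to 123 CPM. The part of these markers in the Oxtr difference was not tested.

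Tacr3 averaged 0.173 ± 0.221 CPM in D2 Susceptible, 0.692 ± 0.183 CPM in D2 Control and 1.07 ± 0.942 CPM in D2 Resilient libraries (SD, n = 5 each). Its fitted log2 difference between Susceptible and Control was -1.96 (SE 0.73, edgeR adjusted p = 0.207), and between Susceptible and Resilient -2.59 (SE 0.74, edgeR adjusted p = 0.078). These were -1.26 and -1.88 without D2 Susceptible replicates 1 and 2, both at 0 counts. The difference from Resilient passed in edgeR without D2 Susceptible replicate 3, 4 or 5 (-2.49, -3.61 and -2.65, adjusted p = 0.0459, 0.0323 and 0.0423), which leaves the libraries at 0 in the fit. Without replicate 3, calls over all genes in that comparison rose from 10 to 1964. The D1 neuron, SST/NPY/NOS1 and VIP/CCK/CALB2 markers that Tacr3 followed in D2 libraries are those given for Oxtr, and their part in the Tacr3 difference was not tested.

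The other receptors gave values that did not pass in D2 libraries. Tacr1 in Susceptible mice differed from Control by -0.39 (SE 0.24, edgeR adjusted p = 0.429) and from Resilient by -0.51 (SE 0.24, edgeR adjusted p = 0.241), and these were -0.18 from Control without D2 Susceptible replicate 1 and -0.17 from Resilient without the 4 libraries that stood apart. The VIP/CCK/CALB2 markers that Tacr1 and Npy1r followed in D2 libraries had lower mean log2 levels in D2 Susceptible libraries, as given for Oxtr, and their part was not tested. Npy1r differed by -0.70 from Control and -0.68 from Resilient (SE 0.49 each), and by -0.39 and -0.36 without D2 Susceptible replicate 1, the library without Npy1r counts. Crhr1 differed by 0.13 from Control and by 0.38 from Resilient (SE 0.20 each). Avpr1a in the 5 D2 Control libraries stood at 0.122, 0.127, 0, 0.0731 and 0.201 CPM. Avpr1a in the 5 D2 Resilient libraries stood at 0.904, 0.0861, 0.278, 0.706 and 0.221 CPM. Avpr1a was thus above the highest Control library in 4 of 5 D2 Resilient libraries, with a log2 difference of 2.04 that did not pass (SE 1.10, edgeR unadjusted p = 0.0724, adjusted p = 1).

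**Figure D4:**
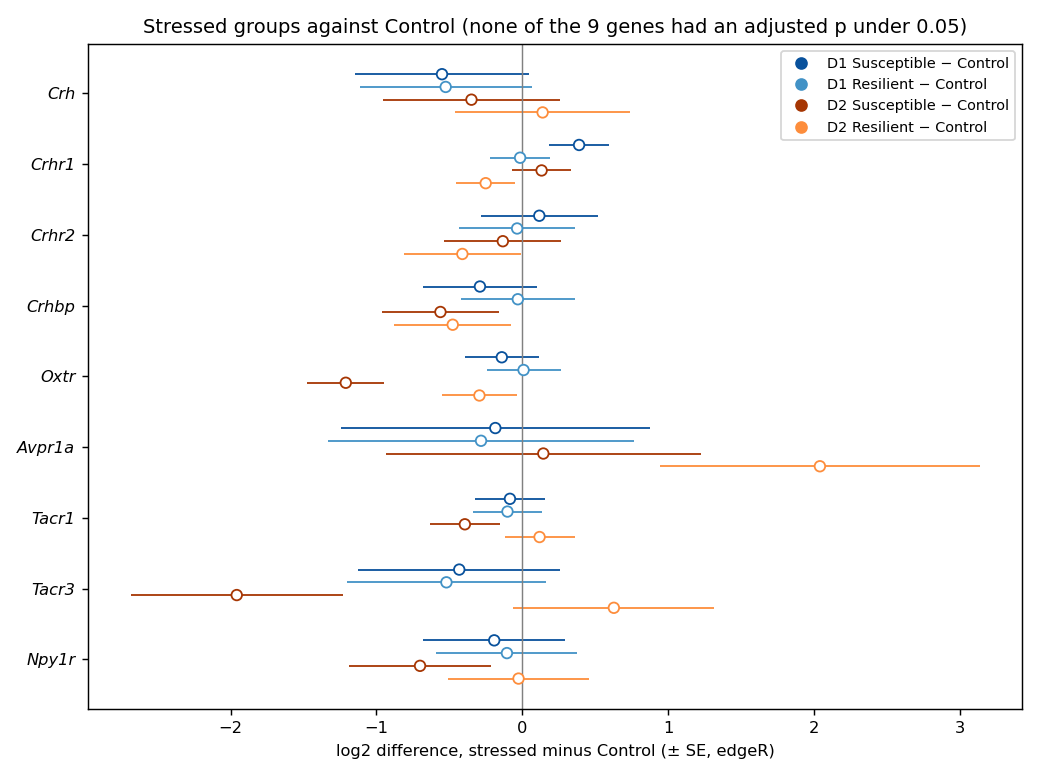
Log2 difference of the Susceptible and Resilient groups from Control within D1 (blue) and D2 (orange and brown) libraries, with its SE from edgeR. Points are open because none passed an adjusted p of 0.05. Oxtr and Tacr3 in D2 Susceptible libraries lie farthest below 0, and Avpr1a in D2 Resilient libraries lies farthest above 0.

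Whether a stress difference was itself unequal between the classes was tested by the interaction. It gave 0 calls of 9 genes in each of 3 interactions, where 0% of genes passed in each, and DESeq2 and voom also called 0. At an unadjusted p under 0.05 there were 1 (Oxtr), 0 and 2 (Oxtr and Tacr3), for Susceptible against Control, Resilient against Control and Susceptible against Resilient, where 7.79%, 4.99% and 12.4% of genes were. The D1 change of Oxtr exceeded the D2 change by 0.77 in Susceptible against Resilient mice (SE 0.37, edgeR adjusted p = 0.389), and by 0.26 without the 4 libraries that stood apart. For Tacr3 the excess was 1.53 in Susceptible against Control (SE 0.99, edgeR adjusted p = 0.683) and 2.67 in Susceptible against Resilient (SE 1.00, edgeR adjusted p = 0.295), and 0.44 and 0.93 without those 4 libraries. For Avpr1a it was -2.32 in Resilient against Control (SE 1.51, edgeR adjusted p = 1).

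The partners of these receptors were described from lists chosen by name, to be read against the 13.8% of all genes called higher and the 15.5% called lower in D1 libraries over the 3 groups. Of 11 ligands of the same families, 6 passed the filter on low counts, and 3 of these were called higher in D1 libraries over the 3 groups, with a median log2 difference of 1.46 against 0.00 for all genes. Npy, the Y1 ligand, was higher by 1.56 (SE 0.13, edgeR adjusted p = 2.34e-10), Tac2, which encodes neurokinin B, by 1.48 (SE 0.16, edgeR adjusted p = 7.13e-09), and Tac1, which encodes substance P, by 1.43 (SE 0.19, edgeR adjusted p = 1.99e-06). These 3 also stand in the marker lists above, Npy for SST/NPY/NOS1 interneurons, Tac2 for PV interneurons and Tac1 for D1 neurons. Tac1 stood at 828 ± 104 CPM in D1 and 308 ± 172 CPM in D2 libraries, and Npy at 49.8 ± 9.36 and 17.2 ± 7.87 CPM (SD, n = 15 each). Ucn, Ucn3 and Tac4 did not pass the test (log2 differences 1.03, 1.79 and -0.20, edgeR adjusted p = 0.43, 0.107 and 0.899). Oxt and Avp, the ligands of Oxtr and Avpr1a, lay under the filter, with 0 counts in 24 and 12 of 30 libraries, as did Ucn2, with at most 3 counts, and Pyy and Ppy, with 0 in each.

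Of 7 other receptors, Npy2r and Npy5r passed the filter. Npy2r, the Y2 receptor, stood at 11.8 ± 1.74 CPM in D1 and 12.2 ± 1.69 CPM in D2 libraries (SD, n = 15 each; log2 difference -0.05, SE 0.08, edgeR adjusted p = 0.691), and Npy5r, the Y5 receptor, at 7.06 ± 0.851 and 6.02 ± 1.92 CPM (log2 difference 0.25, SE 0.13, edgeR adjusted p = 0.153). In Susceptible mice Npy5r was called higher in D1 libraries (log2 difference 0.71, SE 0.23, edgeR adjusted p = 0.0247). Avpr1b, Avpr2, Tacr2, Npy4r and Npy6r lay under the filter, with at most 17 counts in a library.

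Downstream of the receptors, 10 of 19 genes of the Gs and cAMP arm were called higher and 0 lower in D1 libraries over the 3 groups (median log2 difference 0.19). Within Control, Resilient and Susceptible mice 3, 3 and 7 were called higher and 0, 0 and 1 lower. Counts within groups, here and for the lists below, are to be read against all genes tested. Of these, 8.3%, 6.65% and 23.9% were called in either direction in Control, Resilient and Susceptible mice. Adcy2 and Adcy8, adenylyl cyclases, were higher by 1.31 (SE 0.08) and 1.39 (SE 0.15), and Prkar1b and Adcy6 by 0.46 (SE 0.07) and 0.48 (SE 0.11). Of 13 tested genes of the Gq arm, 2 were called higher and 4 lower (median -0.05), and within the 3 groups 2, 1 and 2 higher and 1, 2 and 4 lower. Prkca and Plcb4 were higher, by 0.58 (SE 0.06) and 0.84 (SE 0.12), while Itpr2, Plcb3, Prkcb and Itpr3 were lower, with log2 differences of -1.37, -1.36, -0.41 and -1.28. Of 8 genes of the Gi/o arm, 4 were called higher (Kcnj9, Gnai1, Kcnj3 and Kcnj6, log2 differences 0.66, 0.74, 0.66 and 1.48) and 2 lower (Gnai2 and Gnao1, -0.23 and -0.19), with a median of 0.39, and within the 3 groups 3, 3 and 4 higher and 1, 0 and 2 lower. Of 7 genes of receptor desensitisation, 6 were called higher, among them the receptor kinases Grk3 and Grk2 by 0.79 and 0.47 and Grk5 by 0.34, with a median of 0.32, and within the 3 groups 2, 2 and 4 were called higher. Of 7 peptide-degrading enzymes, Ace and Prep were called higher (0.94 and 0.23) and Ece1 and Mme lower (-0.18 and -0.22), with a median of -0.18, and 0 of 7 were called within any of the 3 groups. None of the genes of these 7 lists was called by edgeR in any of the 6 stress comparisons or the 3 interactions.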

How the data were processed

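The authors deposited raw gene counts, made from reads of polyribosome-bound RNA with HISAT2 and HTSeq on GRCm38 (mm10), per the submitters' processing notes, which give no versions. For the annotation release and the strand setting of the counting, no source used here gives a value. The 5 summary lines of each file, 10.1% to 53.3% of a library's reads, stayed out of library sizes and tests. The deposited series table held the same counts in 30 of 30 libraries. Symbols and coordinates came from GENCODE release M21 on GRCm38, which named 55154 of 55335 rows, and promoter sequences from RefSeq on GRCm38.p6.

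edgeR 4.0.16 in R 4.3.3 fitted 1 mean per group over the 30 libraries by robust quasi-likelihood, with TMM scaling and filterByExpr (minimum count 10), which left 19368 genes. Benjamini-Hochberg adjustment ran over these genes in each of 13 comparisons, at 0.05. 38 alternatives used DESeq2 1.42.0, limma 3.58.1 (voom with quality weights), other scaling, no filter, fewer libraries and a replicate block. Profiles over the 30 libraries were compared as log2 CPM (prior count 2) between each gene with a mean of at least 1 CPM and candidates of at least 5 CPM. Correlations used 100000 permutations over the 15 libraries of a class, not held within stress groups, two-sided (scipy 1.17.1). The floor of 3 counts covers counting error only. The pipeline was tested on simulated data.

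The named genes are the 9, the 2 most alike of each, the genes of 7 lists of ligands, receptors and signalling partners, up to 4 per direction by adjusted p, and listed markers; 1 gene that this rule names is not reported here. Genes, lists and alternatives were chosen with earlier results of these data known. Male and human data mentioned in the series' text were not analysed here.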

Additional observations from a re-analysis of the deposited data

Results flagged for a closer look

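In 6 of 54 sets of 5 libraries (9 genes in 6 groups), 1 library lay far from the other 4. The rule was Dixon's: a gap to the next library above 0.71 of the set's range in CPM. For normally distributed values in independent sets it flags about 1 in 20, or 2.7 sets. These sets share libraries and their values were not tested for normality, so 2.7 is a rough guide. Crhr1 stood at 12.5 CPM in D2 Control replicate 1, against 6.28 to 7.73 CPM in the others of its group. Crhbp stood at 13.5 CPM in D2 Control replicate 5, against 2.12 to 3.80 CPM, and at 8.19 CPM in D2 Susceptible replicate 2, against 1.91 to 2.73 CPM. Oxtr reached 15.5 CPM in D1 Susceptible replicate 5, against 10.8 to 11.4 CPM. Tacr3 reached 2.33 CPM in D1 Susceptible replicate 1, against 0.679 to 1.03 CPM. Npy1r reached 18.1 CPM in D1 Control replicate 3, against 13.7 to 14.7 CPM. In D2 Control replicate 5 the SST/NPY/NOS1 markers summed to 257 CPM and the PV markers to 107 CPM, the highest among the D2 libraries.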

How the results depend on the processing

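The count of the 9 genes called was within 1.5 times its main value under the 38 alternatives, except in 4 comparisons. In D1 against D2 Resilient libraries it was 2, and 5 with voom, 5 without the 4 libraries that stood apart and 2 to 4 when each library was left out in turn, with 4 without D2 Resilient replicate 5. Calls over all genes in that comparison rose too, from 1288 in the main fit to 3412 with voom, the most under any alternative. In D1 against D2 Susceptible libraries it was 6, and 2 when those 2 groups alone were fitted, where calls over all genes fell from 4621 to 915. In D2 Susceptible against Control it was 0, and 1 with DESeq2 and 0 to 1 with each library left out, with 1 without D2 Susceptible replicate 3 or 5. In D2 Susceptible against Resilient it was 0, and 2 with DESeq2 and 0 to 2 with each library left out, with 2 without D2 Susceptible replicate 3 or 5 and 1 without replicate 4. With the replicate number as a block, D2 Susceptible against Control gave 1 call, Oxtr (adjusted p = 0.0481). Over 75 pairs of same-numbered libraries the deviations from group means had correlations of -0.168 to 0.0779. No pairing by number showed in them, but a batch or cohort shared by same-numbered libraries is not excluded. Tacr3 in D1 against D2 Resilient libraries, at -0.04, changed sign to 0.073 under the replicate block, 0.48 with voom and 0.61 without the 4 libraries, and ran from -0.26 to 0.62 with each library left out; the cause was not tested. Of 2203 values of 58 differences under the alternatives, 2133 kept direction and side of the threshold, 21 lost the call, 43 gained it and 6 changed sign.

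Counts over all genes moved too. D1 against D2 gave 981 to 5511 calls in Control (main 1608), 960 to 3412 in Resilient (1288) and 915 to 6218 in Susceptible mice (4621). D2 Susceptible against Control gave 0 to 828 (1) and against Resilient 0 to 1964 (10), both highest without D2 Susceptible replicate 3. The comparisons with 0 calls reached 3, 180 and 14 in D1, 5 in D2 Resilient against Control, and 5, 160 and 156 for the interactions. Avpr1a, at 0 to 56 counts per library, is the gene read from the fewest counts. Avpr1a in Susceptible mice gave no value when the groups compared were fitted alone.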

Other observations

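Compared per kilobase of exon, as mean levels over the 15 libraries of each class, the 9 genes stood in a different order in the 2 classes. In D1 libraries Crhbp (10.8 CPM per kilobase), Crh (5.35), Npy1r (4.06) and Oxtr (2.67) stood above Crhr1 (1.96). In D2 libraries Crhr1 was highest (3.24), followed by Npy1r (2.56), Crhbp (2.23), Crh (1.48), Tacr1 (1.14) and Oxtr (0.677), and the ranges of these 6 genes over libraries overlapped between neighbours. The order was read from the levels and not tested.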
